A study of Mus musculus with 10 samples.

Results

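The genes described here drive DNA replication, the cell cycle and mitosis. They were taken by symbol from a list of 44 names, and all 44 were among the 54532 genes of the deposited table. The kidneys came from male WT mice on the C57BL/6 background that underwent unilateral ureteral obstruction (UUO), by double ligation of the left ureter, at 8 weeks of age. Tissue was collected on day 14. The control group was injected with PBS. The treated group received DMM, a malonate ester that inhibits succinate dehydrogenase, by intraperitoneal injection of 40 mg/kg every other day. Each group had 5 mice, and every mouse gave a single mRNA library from whole kidney. Both groups carried the obstruction, and the table holds no unobstructed kidney, so that the values compare DMM with PBS within obstructed kidneys only. Control libraries held 16457495 to 18078777 counted reads (median 17825223), and DMM libraries held 15722527 to 19475833 (median 16794390).

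Cells license origins in G1 by loading the MCM helicase, copy their DNA in S phase with a sliding clamp and a supply of deoxynucleotides, and separate the chromosomes in mitosis with kinases, motors and kinetochore proteins. Many of these transcripts are made mainly in cycling cells: those for replication are largely under E2F factors, and those for mitosis are under the DREAM and MuvB complexes with FOXM1. In an obstructed kidney, tubular cells, fibroblasts and infiltrating leukocytes can all enter the cycle. In whole tissue, fewer cycling cells and less RNA per cycling cell cannot be told apart.

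All 44 genes were protein coding and passed the filter on low counts, which kept 16505 genes over 10 libraries. Levels are given as CPM, read counts scaled to library size with TMM factors, and levels of different genes are compared only as CPM per kilobase of the deposited gene length. On that scale, over the 9 libraries other than DMM replicate 4, the most abundant member was Pcna, at 31.95 CPM per kb, followed by Mcm6 at 16.9, Mcm7 at 11.6 and Mcm4 at 10.7. The lowest were Cdc6, at 1.01 CPM per kb, and Cenpf, at 1.08. Mki67 was at 7.39 CPM per kb, and at 11.8 with DMM replicate 4 included. They lie on 17 chromosomes. In the deposited mm10 positions, Aurkb (ENSMUSG00000020897) is at chr11:69045647-69051664, Gins2 (ENSMUSG00000031821) at chr8:120578633-120589304, Cenpf (ENSMUSG00000026605) at chr1:189640606-189688086 and Mki67 (ENSMUSG00000031004) at chr7:135689784-135716361. On the opposite strand, 11 of the 44 genes overlap another expressed gene, among them Mcm7 (Cops6 and Ap4m1), Gins2 (Gse1), Tk1 (Afmid), Ccna2 (Exosc9) and Cdc20 (Elovl1). The strand setting of the counting was not given in the sources used here, so that reads of those neighbours may be part of these counts. No member overlaps an expressed gene on its own strand.

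DMM replicate 4 stood apart from the other 9 libraries. It had counts for 20029 genes, against 22898 to 24083 in the others, and a TMM factor of 0.852, against 0.981 to 1.05. The mitochondrial genome took 5.62% of its counts, against 1.97% to 4.39%. Across genes, its log2 CPM correlated with those of the other DMM libraries at a Pearson r of 0.975 to 0.977, whereas the other pairs within a group were at 0.989 to 0.997. Results are therefore given with and without it. Another pair of libraries, control replicate 3 and DMM replicate 1, carried 0 weight in the deposited group means, and the comparison was also made over the 8 libraries that entered those means. For the test of the study itself 5 replicates were stated, so that it is open whether this choice was made there. The comparisons share samples and are no independent checks of each other.

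**Figure D1:**
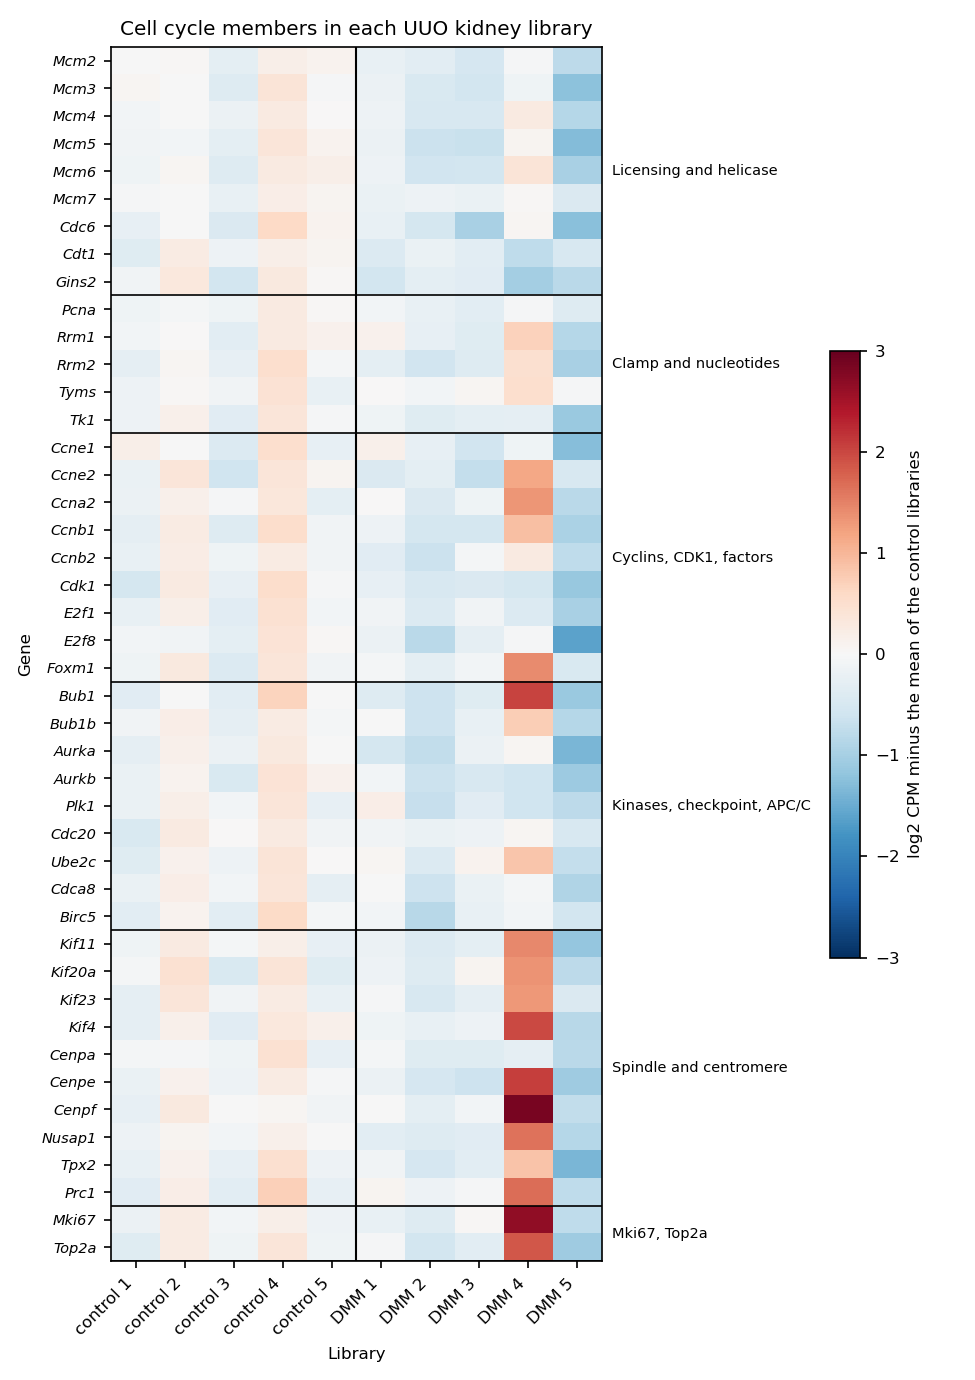
Log2 CPM of the 44 genes (vertical, grouped by role) in the 5 control and 5 DMM libraries (horizontal), each minus the mean of the gene over the 5 control libraries. DMM replicate 4 is the highest library for 23 genes and DMM replicate 5 the lowest for 38.

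The members did not follow the groups so much as single kidneys. Of the 44 genes, 23 were highest in DMM replicate 4, 19 in control replicate 4 and 2 in control replicate 2. DMM replicate 5 was the lowest library for 38 of them. Over all 16505 tested genes, DMM replicate 4 was highest for 33.6% and lowest for 35.7%, control replicate 4 was highest for 10.6%, and DMM replicate 5 was lowest for 9.59%. The summed level of the 44 genes was 951, 1143, 907, 1316 and 1045 CPM in control replicates 1 to 5, and 970.5, 799.6, 854, 2157 and 600.1 CPM in DMM replicates 1 to 5. It was more than any other library in DMM replicate 4 and less than any other in DMM replicate 5, and both carried the same treatment. As the mean of log2 CPM over the 44 genes, minus the mean of the 5 controls, the libraries were at -0.19, 0.14, -0.24, 0.35 and -0.06 in control replicates 1 to 5, and -0.14, -0.43, -0.30, 0.59 and -0.86 in DMM replicates 1 to 5. On this scale, DMM replicates 2, 3 and 5 lay below every control library, DMM replicate 1 lay among the controls, and DMM replicate 4 lay above all of them.

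The comparison of 5 DMM with 5 control kidneys asked whether treatment changed these genes in obstructed tissue. Replication licensing genes had lower estimates in DMM kidneys, with all 9 below 0 and a median log2 fold change of -0.44. Cyclin and kinase genes were mostly below 0, whereas 8 of 10 spindle and centromere genes were above it, with a median of 0.22. Mki67 and Top2a had estimates of 0.92 and 0.37. When DMM replicate 4 was left out, the estimates of all 44 genes were below 0, and the median moved from -0.20 to -0.44.

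By the quasi-likelihood test of edgeR, adjusted after Benjamini-Hochberg, 0 of 44 members were called higher and 0 lower over 10 libraries, as were 0% of all genes in each direction. At an unadjusted p under 0.05, 0 members were higher (4.4% of all genes) and 6 were lower (6.49%). DESeq2 also called 0 members in either direction, with 12 genes higher and 33 lower in the whole table. The smallest adjusted p of any member was 0.385, for Gins2 (edgeR). The ranges of the groups overlapped for all 44 genes, so that 0 lay wholly lower in DMM (1.16% of all genes) and 0 wholly higher (0.794%). The median over all tested genes was 0.02, with 15 members above 0 and 29 below. Without DMM replicate 4, edgeR again called 0 members in either direction (0% of all genes), with a smallest adjusted p of 0.256 for Mcm2. There, 24 members were lower at an unadjusted p under 0.05 (9.65% of all genes) and 0 were higher (7.35%), with a median of 0.00 over 16707 genes. The 44 estimates ran from -0.74 for Cdc6 to -0.03 for Tyms. The count of 6 was 2 without control replicate 4 (4.84% of all genes), 2 without DMM replicate 5 (4.53%), 3 without control replicate 2 (4.89%), 10 without control replicate 3 (6.68%) and 10 without DMM replicate 1 (10.2%). The estimates of Mki67, Top2a, Ccnb1 and Tpx2 changed sign on single libraries, as given with each gene.

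**Figure D2:**
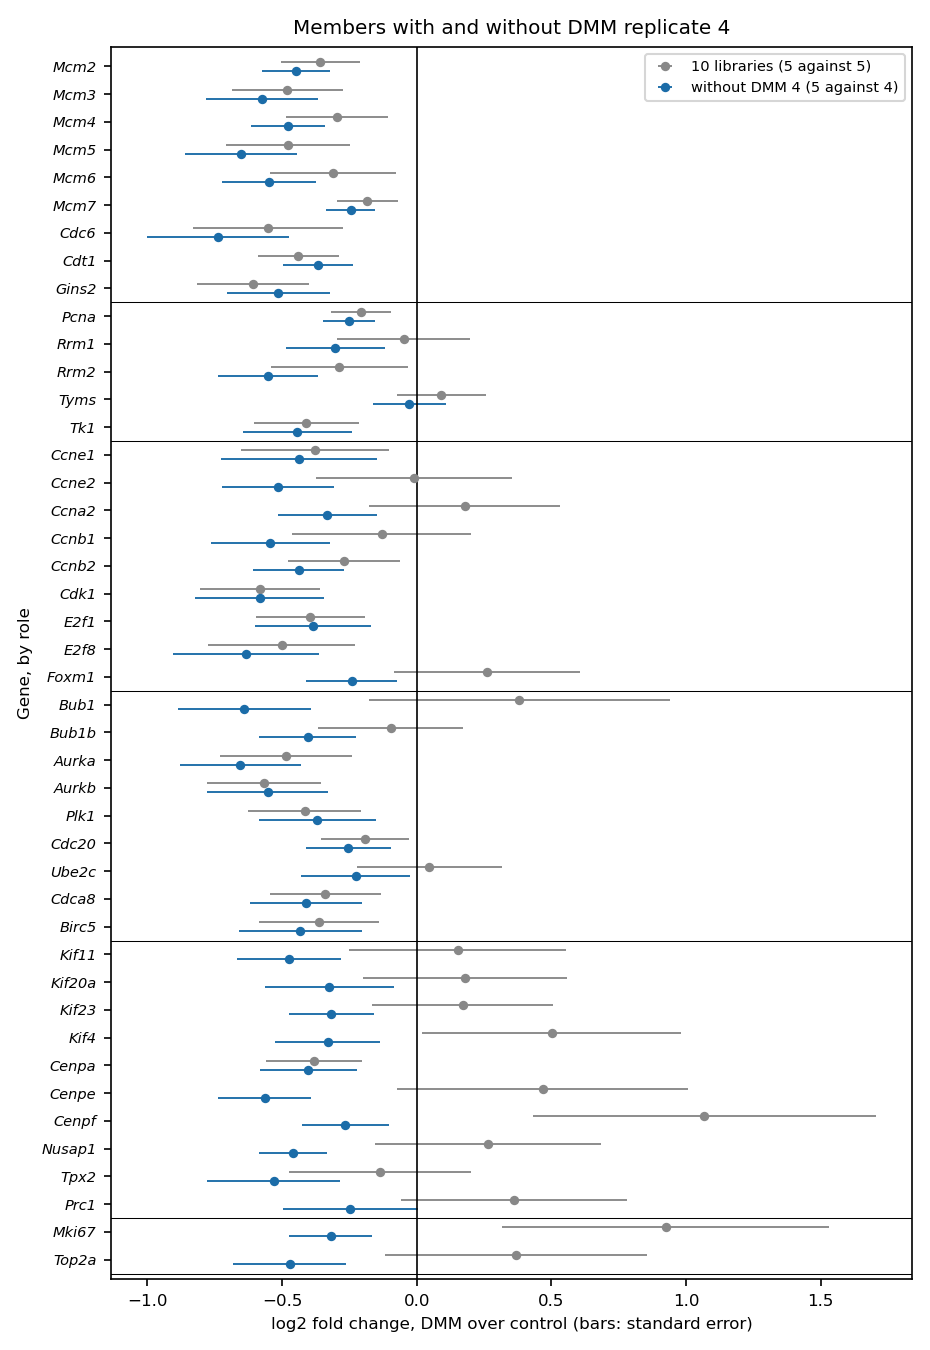
Log2 fold change of DMM over control for each of the 44 genes by role, over 10 libraries (grey) and without DMM replicate 4 (blue), with bars of 1 standard error. Without that library all 44 points lie below 0, and the points of Cenpf move from 1.07 to -0.27 and of Mki67 from 0.92 to -0.32.

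Among the licensing and helicase genes, Mcm2 to Mcm7 encode the subunits of the replicative helicase, Cdc6 and Cdt1 load it onto origins, and Gins2 encodes a subunit of the GINS complex that activates it. Mcm2 was at 52.2, 54.1, 43.4, 59.7 and 57.2 CPM in control replicates 1 to 5, and 45.8, 42.5, 37.4, 51.7 and 30.7 CPM in DMM replicates 1 to 5. DMM replicates 2, 3 and 5 were below every control, and replicates 1 and 4 were inside the control range. Group levels were 53.3 ± 6.25 CPM in control and 41.6 ± 8.02 CPM in DMM kidneys (mean and SD, n = 5 each). The log2 fold change of Mcm2 was -0.36 ± 0.15 (adjusted p = 0.425) over 10 libraries and -0.45 ± 0.13 (adjusted p = 0.256) without DMM replicate 4 in edgeR's test. Mcm6, the most abundant of them per length, was at 83.1, 93.8, 69.9, 110.1 and 103 CPM in control replicates 1 to 5, and 81.7, 61.4, 62.2, 119 and 46.1 CPM in DMM replicates 1 to 5. Here DMM replicate 4 was above every control, and DMM replicates 2, 3 and 5 were below every control. Its fold change was -0.31 ± 0.23 (adjusted p = 0.597), and -0.55 ± 0.17 (adjusted p = 0.256) without DMM replicate 4 (edgeR). Gins2 went the other way in that library. It was at 9.11, 12.2, 6.63, 11.9 and 10.1 CPM in control replicates 1 to 5, and 6.67, 8.004, 7.65, 4.77 and 5.59 CPM in DMM replicates 1 to 5. DMM replicates 4 and 5 were below every control, and control replicate 3 was below the other 3 DMM libraries. The fold change of Gins2 was -0.61 ± 0.21 (adjusted p = 0.385), and -0.51 ± 0.19 (adjusted p = 0.265) without DMM replicate 4 (edgeR). The other 6 genes had fold changes between -0.55 for Cdc6 and -0.18 for Mcm7. At an unadjusted p under 0.05 in edgeR's test, 4 of the 9 genes were lower over 10 libraries (6.49% of all genes). Without DMM replicate 4, 9 of 9 were lower (9.65%), and the median was -0.51. As mean log2 CPM minus the control mean, the 9 genes were at -0.11, 0.05, -0.32, 0.30 and 0.07 in control replicates 1 to 5, and -0.24, -0.40, -0.51, -0.12 and -0.89 in DMM replicates 1 to 5. DMM replicate 5 was the lowest on this scale, and DMM replicate 4 was inside the control range.

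The clamp and nucleotide genes comprised Pcna, the sliding clamp of the DNA polymerases, Rrm1 and Rrm2, the subunits of ribonucleotide reductase, Tyms, the enzyme that makes thymidylate, and Tk1, which salvages thymidine. Pcna was at 75.6, 79.3, 75.1, 98.7 and 83.9 CPM in control replicates 1 to 5, and 78.1, 70.6, 65.9, 80.04 and 62.8 CPM in DMM replicates 1 to 5. DMM replicates 2, 3 and 5 were below every control, and replicates 1 and 4 were inside the control range. Levels were 82.5 ± 9.71 CPM in control and 71.5 ± 7.498 CPM in DMM kidneys (mean and SD, n = 5 each). Tk1 was at 18.1, 22.4, 15.97, 25.8 and 19.7 CPM in control replicates 1 to 5, and 18.4, 15.7, 16.5, 16.7 and 9.3 CPM in DMM replicates 1 to 5. DMM replicate 5 was lowest, DMM replicate 2 was just under the lowest control, and the other 3 were inside the control range. In edgeR's test the log2 fold change of Pcna was -0.21 ± 0.11 (adjusted p = 0.513) and that of Tk1 was -0.41 ± 0.19 (adjusted p = 0.478). They were, without DMM replicate 4, -0.25 ± 0.10 (adjusted p = 0.267) and -0.44 ± 0.20 (adjusted p = 0.299). Tyms differed from the rest in having an estimate of 0.09 over 10 libraries and -0.03 without DMM replicate 4. It was lowest in control replicate 5, at 14.1 CPM, and the 4 DMM libraries other than replicate 4 lay between 15.7 and 17.2 CPM. At an unadjusted p under 0.05, 0 of 5 were lower in edgeR's test over 10 libraries (6.49% of all genes). Without DMM replicate 4, 2 were lower (9.65%). The medians were -0.21 and -0.30.

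Among cyclins, Cdk1 and transcription factors, Ccne1 and Ccne2 encode the E cyclins of the G1/S transition, Ccna2 encodes the cyclin of S phase and G2, and Ccnb1 and Ccnb2 encode the partners of CDK1 at mitotic entry. E2F1 activates S phase genes, E2F8 represses E2F targets, and FOXM1 activates mitotic genes. Cdk1 was at 11.6, 20.01, 14, 24.1 and 16.1 CPM in control replicates 1 to 5, and 14.01, 11.8, 12.3, 11.5 and 7.54 CPM in DMM replicates 1 to 5. DMM replicates 4 and 5 were below every control, and the other DMM libraries were inside the control range. Cdk1 had the lowest p of its group, with a log2 fold change of -0.58 ± 0.22 (adjusted p = 0.403) in edgeR's test and -0.58 ± 0.24 (adjusted p = 0.274) without DMM replicate 4. Its partner Ccnb1 had another pattern, at 9.903, 14.2, 9.05, 17.1 and 11.1 CPM in control replicates 1 to 5, and 10.8, 8.32, 8.33, 22.4 and 6.2 CPM in DMM replicates 1 to 5. DMM replicate 4 was above every control and DMM replicates 2, 3 and 5 were below every control. The fold change of Ccnb1 was -0.13 ± 0.33 (adjusted p = 0.883), and -0.54 ± 0.22 (adjusted p = 0.273) without DMM replicate 4 (edgeR). It was 0.02 without control replicate 4 or without DMM replicate 5. Ccnb2, the most abundant of the group per length, was at 10.2, 14.1, 10.96, 14.2 and 11.2 CPM in control replicates 1 to 5, and 9.44, 7.63, 11.6, 14.5 and 7.11 CPM in DMM replicates 1 to 5. DMM replicate 4 was again the highest, while DMM replicates 1, 2 and 5 were below every control.

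E2f1 was at 12.3, 16.01, 11.2, 19.7 and 13.5 CPM in control replicates 1 to 5, and 13.3, 10.8, 13.2, 10.8 and 7.23 CPM in DMM replicates 1 to 5. DMM replicates 2, 4 and 5 were below every control, and control replicate 4 was highest. Ccne1 was at 5.51, 4.83, 3.65, 6.97 and 4.12 CPM in control replicates 1 to 5, and 5.43, 4.096, 3.29, 4.47 and 2.01 CPM in DMM replicates 1 to 5. DMM replicates 3 and 5 were below every control, and control replicate 4 was highest. In edgeR's test the log2 fold change was -0.27 ± 0.21 (adjusted p = 0.607) for Ccnb2, -0.40 ± 0.20 (adjusted p = 0.503) for E2f1 and -0.38 ± 0.27 (adjusted p = 0.586) for Ccne1. Without DMM replicate 4 the values were -0.44 ± 0.17 (adjusted p = 0.268), -0.39 ± 0.22 (adjusted p = 0.361) and -0.44 ± 0.29 (adjusted p = 0.424). Foxm1 and Ccna2, chosen after their values were seen, had estimates above 0 over 10 libraries, at 0.26 ± 0.35 and 0.18 ± 0.35, and below 0 without DMM replicate 4, at -0.24 ± 0.17 and -0.33 ± 0.18. Their levels in that library were 42.5 and 48.2 CPM, against at most 20.5 and 24.4 CPM in the other 9. Of the 9 genes, 1 was lower at an unadjusted p under 0.05 in edgeR's test over 10 libraries (6.49% of all genes). Without DMM replicate 4, 5 were lower (9.65%). The medians were -0.27 and -0.44.

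Mitotic kinases and their regulators included Plk1 and Aurka, which act at centrosomes and spindle poles, and Aurkb, Birc5 and Cdca8, which encode parts of the chromosomal passenger complex. Bub1 and Bub1b belong to the spindle checkpoint, and Cdc20 and Ube2c encode the activator and a ubiquitin-conjugating enzyme of the anaphase-promoting complex. Aurkb was at 9.53, 11.8, 7.98, 14.5 and 11.9 CPM in control replicates 1 to 5, and 10.4, 6.93, 7.88, 7.25 and 5.17 CPM in DMM replicates 1 to 5. Among DMM kidneys, replicates 2 to 5 were below every control, and replicate 1 was inside the control range. Group levels were 11.1 ± 2.48 CPM in control and 7.52 ± 1.88 CPM in DMM kidneys (mean and SD, n = 5 each). The log2 fold change of Aurkb was -0.57 ± 0.21 (adjusted p = 0.397), and -0.55 ± 0.22 (adjusted p = 0.273) without DMM replicate 4 (edgeR). Cdc20, the most abundant of the group per length, was at 9.53, 15.7, 13.1, 15.8 and 12 CPM in control replicates 1 to 5, and 12.04, 11.3, 11.6, 13.5 and 9.36 CPM in DMM replicates 1 to 5. Only DMM replicate 5 was below every control, at 9.36 CPM against 9.53 CPM in control replicate 1. Its fold change was -0.19 ± 0.16 (adjusted p = 0.643), and -0.25 ± 0.16 (adjusted p = 0.401) without DMM replicate 4 (edgeR). With an offset for gene length and GC content the estimate was 0.09. Bub1, chosen after its values were seen, was at 4.82, 6.003, 4.89, 9.74 and 6.06 CPM in control replicates 1 to 5, and 4.63, 3.97, 4.76, 24.9 and 2.796 CPM in DMM replicates 1 to 5. DMM replicate 4 was far above all other libraries, and the other 4 DMM libraries were below every control. Its fold change was 0.38 ± 0.56 (adjusted p = 0.795), and -0.64 ± 0.25 (adjusted p = 0.267) without DMM replicate 4 (edgeR). The role group had a median of -0.34 over 10 libraries and -0.41 without DMM replicate 4. In edgeR's test 1 and 4 of 9 genes passed an unadjusted p under 0.05 as lower (6.49% and 9.65% of all genes).

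DMM replicate 4 was the highest library for 9 of 10 spindle and centromere genes. Kif11, Kif20a, Kif23 and Kif4 encode mitotic kinesins, Tpx2 activates Aurora A on the spindle, Prc1 and Nusap1 bundle microtubules, Cenpa encodes the centromeric histone H3 variant, and Cenpe and Cenpf encode kinetochore proteins. Cenpf, chosen after its values were seen, was at 15.1, 21.9, 17.8, 18.6 and 16.6 CPM in control replicates 1 to 5, and 17.7, 14.6, 16.9, 129 and 10.6 CPM in DMM replicates 1 to 5. DMM replicate 4 was far above all other libraries, while DMM replicates 2 and 5 were below every control. The log2 fold change of Cenpf was 1.07 ± 0.64 (adjusted p = 0.536), and -0.27 ± 0.16 (adjusted p = 0.391) without DMM replicate 4 (edgeR). Cenpe, chosen in the same way, was at 14.8, 18.5, 15.2, 19.9 and 16.5 CPM in control replicates 1 to 5, and 14.9, 11.9, 10.99, 71.5 and 8.02 CPM in DMM replicates 1 to 5. DMM replicates 2, 3 and 5 were below every control and replicate 4 above. Its fold change was 0.47 ± 0.54 (adjusted p = 0.735), and -0.57 ± 0.17 (adjusted p = 0.256) without DMM replicate 4 (edgeR). Kif4, also chosen after its values were seen, was at 6.302, 8.47, 6.02, 9.47 and 8.41 CPM in control replicates 1 to 5, and 6.97, 6.49, 6.86, 30.1 and 4.25 CPM in DMM replicates 1 to 5. Only DMM replicate 5 was below every control.

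Tpx2, the most abundant of the spindle and centromere genes per length, was at 18.4, 23.4, 17.9, 30 and 19.1 CPM in control replicates 1 to 5, and 19.7, 15.1, 17.2, 38.7 and 8.21 CPM in DMM replicates 1 to 5. DMM replicate 4 was above and DMM replicates 2, 3 and 5 were below every control. Its fold change was -0.14 ± 0.34 (adjusted p = 0.879), and -0.53 ± 0.25 (adjusted p = 0.304) without DMM replicate 4 (edgeR). The estimate was 0.01 without control replicate 4 and 0.06 without DMM replicate 5. Cenpa, of the smallest p in the group, was at 12.4, 12.5, 11.6, 17.7 and 10.8 CPM in control replicates 1 to 5, and 12.2, 9.89, 9.97, 10.6 and 7.29 CPM in DMM replicates 1 to 5. It was not raised in DMM replicate 4: that library and DMM replicates 2, 3 and 5 were below every control. The fold change of Cenpa was -0.38 ± 0.18 (adjusted p = 0.465), and -0.40 ± 0.18 (adjusted p = 0.296) without DMM replicate 4 (edgeR). As mean log2 CPM minus the control mean, the 10 genes were at -0.19, 0.20, -0.19, 0.32 and -0.15 in control replicates 1 to 5, and -0.11, -0.37, -0.23, 1.48 and -0.88 in DMM replicates 1 to 5. Their median fold change was 0.22 over 10 libraries and -0.37 without DMM replicate 4. At an unadjusted p under 0.05, 0 of 10 were lower in edgeR's test over 10 libraries (6.49% of all genes). Without DMM replicate 4, 3 were lower (9.65%).

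Mki67 encodes the protein that coats mitotic chromosomes and marks cycling cells in tissue, and Top2a encodes the topoisomerase that untangles sister DNA. Mki67 was at 71.7, 95.8, 76.8, 91.3 and 72.4 CPM in control replicates 1 to 5, and 69.1, 62.2, 82.5, 513 and 47.5 CPM in DMM replicates 1 to 5. DMM replicate 4 had 7.08 times the median of the other 9 libraries, DMM replicates 1, 2 and 5 were below every control, and replicate 3 was inside the control range. Levels were 81.6 ± 11.2 CPM in control and 155 ± 200.5 CPM in DMM kidneys (mean and SD, n = 5 each), and 65.3 ± 14.6 CPM over the 4 other DMM kidneys. Top2a was at 49.4, 75.5, 57.8, 81.3 and 58.3 CPM in control replicates 1 to 5, and 61.9, 42.98, 50.8, 230.5 and 30.3 CPM in DMM replicates 1 to 5. Again DMM replicate 4 was highest, DMM replicates 2 and 5 were below every control, and the other 2 were inside the control range. In edgeR's test the log2 fold change was 0.92 ± 0.61 (adjusted p = 0.563) for Mki67 and 0.37 ± 0.49 (adjusted p = 0.767) for Top2a. It was, without DMM replicate 4, -0.32 ± 0.16 (adjusted p = 0.315) and -0.47 ± 0.21 (adjusted p = 0.293).

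Over the 8 libraries, which leave out control replicate 3 and DMM replicate 1, Aurkb was the single member called by edgeR with TMM factors. It fell, with a log2 fold change of -0.81 ± 0.19 (adjusted p = 0.04) in edgeR's test, and all 4 DMM kidneys were below all 4 controls. Over 10 libraries the groups overlapped, as DMM replicate 1, at 10.4 CPM, was above control replicates 1 and 3, at 9.53 and 7.98 CPM. Licensing genes had a median of -0.48, kinase and checkpoint genes -0.45, cyclins and factors -0.28, clamp and nucleotide genes -0.27, spindle and centromere genes 0.28, and Mki67 with Top2a 0.75. Without DMM replicate 4, which left 3 DMM and 4 control kidneys, all 44 estimates were below 0. There edgeR called 17 of the 44 members lower (7.61% of all genes).

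The 1 call over 8 libraries stood beside 3.56% of 16550 genes called lower. Of the members, 0 were called higher in edgeR's test (2.73% of all genes), and 0 by DESeq2 (2.48%), which called 3 lower (3.01%). At an unadjusted p under 0.05, 12 were lower and 0 higher, with 10.8% of all genes in each direction. The call of Aurkb was lost without any 1 of the other 7 libraries, at adjusted p values between 0.0527 without control replicate 1 and 0.125 without control replicate 4, and with an offset for gene length and GC content, at 0.112, or for gene length alone, at 0.0854 (edgeR). With the replicate number as a block over the 8 libraries, 0 members were called lower (0% of all genes) in edgeR's test. There only replicate numbers 2, 4 and 5 held both groups, so that the lack of calls decides nothing about Aurkb. The call of Aurkb was kept without DMM replicate 4, at -0.84 ± 0.19 (adjusted p = 0.0108, edgeR). The 4 DMM libraries lay wholly below the 4 controls for 7 members, namely Mcm2, Mcm3, Gins2, Tk1, Aurkb, Plk1 and Cenpa (10.6% of all genes), and wholly above for 0 (9.45%). Of these, Gins2 had a log2 fold change of -0.73 ± 0.21 (adjusted p = 0.0737), Plk1 of -0.63 ± 0.19 (adjusted p = 0.0894), Mcm2 of -0.46 ± 0.16 (adjusted p = 0.127) and Mcm3 of -0.65 ± 0.22 (adjusted p = 0.113) (edgeR). Tk1 was at -0.56 ± 0.21 (adjusted p = 0.159) and Cenpa at -0.50 ± 0.20 (adjusted p = 0.183) (edgeR). Cdk1 overlapped between the groups and was at -0.73 ± 0.25 (adjusted p = 0.126) (edgeR). Cenpf and Mki67 had estimates of 1.24 ± 0.75 (adjusted p = 0.384) and 1.09 ± 0.70 (adjusted p = 0.42) (edgeR). The median over all 44 members was -0.25, with 0.02 over all genes.

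Without DMM replicate 4, a choice singled out after the data were seen, edgeR called 17 of 44 members lower, with 7.61% of 16828 genes, and 0 higher, with 6.71%. In total 37 members were lower at an unadjusted p under 0.05 (19.9% of all genes). The median of the members was -0.60, with -0.01 over all genes, and the estimates ran from -1.03 for Cdc6 to -0.06 for Tyms. The 17 genes comprised 7 of 9 licensing genes, namely Mcm2, Mcm3, Mcm4, Mcm5, Mcm6, Cdc6 and Gins2. They also comprised Rrm2 and Tk1 of 5 clamp and nucleotide genes, and Ccne2, Ccnb1 and E2f8 of 9 cyclins and factors. Bub1b, Aurkb and Plk1 were the 3 of 9 kinase and checkpoint genes, Cenpe was the 1 of 10 spindle and centromere genes, and Top2a the 1 of the last 2. Mcm6 had the smallest p and fell by 0.78 ± 0.13 on the log2 scale (adjusted p = 0.00245, edgeR). Mcm2 was at -0.60 ± 0.11 (adjusted p = 0.00369), Mcm5 at -0.92 ± 0.17 (adjusted p = 0.00481) and Cdc6 at -1.03 ± 0.25 (adjusted p = 0.0154) (edgeR). Among mitotic genes Cenpe was at -0.76 ± 0.16 (adjusted p = 0.0087), Ccnb1 at -0.78 ± 0.21 (adjusted p = 0.0238) and Top2a at -0.68 ± 0.21 (adjusted p = 0.0382) (edgeR). Pcna, at -0.35 ± 0.10 (adjusted p = 0.0256), and Mcm7, at -0.31 ± 0.09 (adjusted p = 0.0308), passed the adjusted p but not the fold change of 1.5 (edgeR). So did Rrm1, at -0.55 ± 0.14 (adjusted p = 0.0198), and Nusap1, at -0.53 ± 0.15 (adjusted p = 0.0291) (edgeR). Mki67, at -0.37 ± 0.18 (adjusted p = 0.164), Cdk1, at -0.76 ± 0.26 (adjusted p = 0.0568), and Tpx2, at -0.75 ± 0.26 (adjusted p = 0.0571), did not pass (edgeR). These calls rest on 3 DMM kidneys, and without any 1 of the other 7 libraries in place of DMM replicate 4, edgeR called 0 members lower.

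In DMM replicate 4, Mki67 with Top2a and most spindle and centromere genes stood far above the other libraries, and members of every other role lay on both sides of their mean. The deviation of that library, its log2 CPM minus the mean of the other 9, was 2.97 for Cenpf, 2.81 for Mki67, 2.34 for Cenpe, 2.28 for Bub1, 2.12 for Kif4 and 2.08 for Top2a. Cenpf and Mki67 were at the 99.9th percentile of all tested genes. At the other end, the deviation was -0.80 for Gins2, -0.59 for Cdt1, -0.42 for Plk1, -0.33 for Aurkb and -0.28 for Cdk1. The median was 0.50 over the 44 members and -0.05 over all tested genes, and 36 members were above 0. By role it was 2.45 for Mki67 with Top2a, 1.70 for spindle and centromere genes, 0.51 for clamp and nucleotide genes and 0.47 for cyclins and factors. Licensing genes, at 0.17, and kinase and checkpoint genes, at 0.16, had like medians.

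The deviation of that library moved with gene length and base composition over the whole table. Across 16491 genes its Spearman correlation was 0.424 with gene length and -0.492 with the GC content of the longest transcript. In the other 9 libraries, each against the mean of the other 8 without DMM replicate 4, the correlation with length was between -0.105 and 0.083, and that with GC content was between -0.125 and 0.1. Across the 44 members it was 0.48 with length and -0.667 with GC content in DMM replicate 4. Genes are not independent replicates. Members ranged from 1531 bp for Ccnb2 to 15433 bp for Cenpf, and the 6 of at least 8 kb (Rrm1, Cenpe, Cenpf, Prc1, Mki67 and Top2a) had a median deviation of 2.21, with 0.64 for all 2511 genes of that length. The 9 members under 3 kb had a median of 0.16, with -0.56 for all genes. Among genes of at least 8 kb with a GC content under 45%, 5 members had a median of 2.08 and all 975 genes a median of 0.87. Among those of 3 to 5 kb and under 45% GC, the medians were 1.65 for 5 members and 0.39 for all genes. At 3 to 5 kb and 50% GC or more, they were 0.13 for 7 members and -0.45 for all genes.

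**Figure D3:**
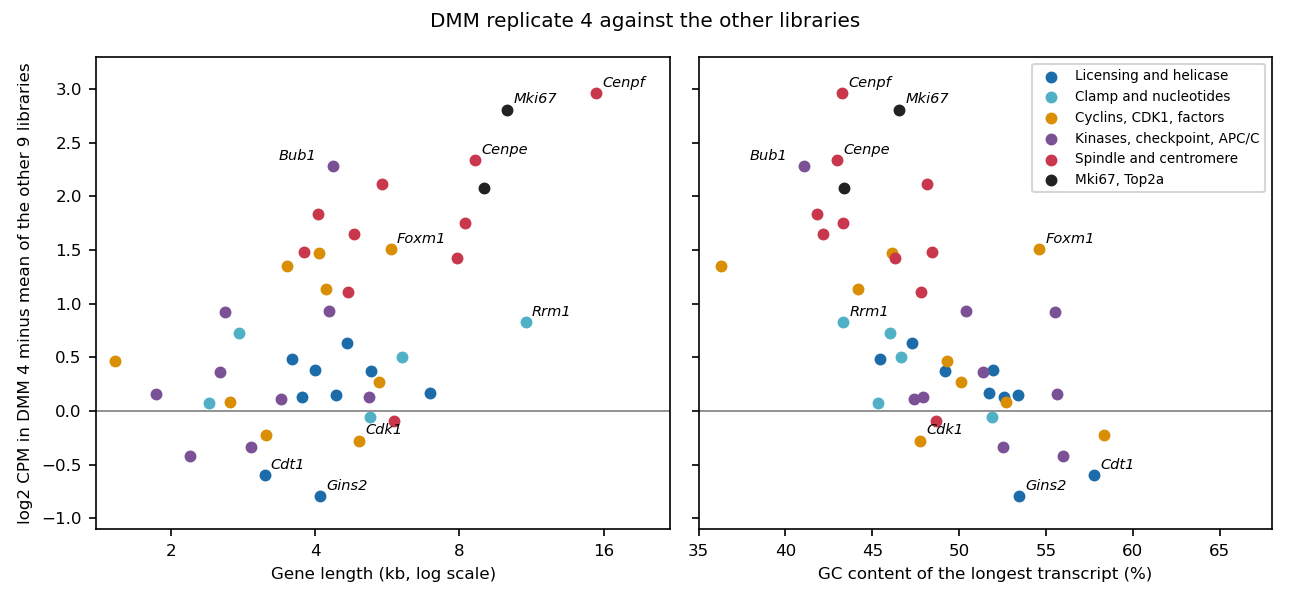
Log2 CPM of the 44 genes in DMM replicate 4 minus their mean in the other 9 libraries (vertical) against gene length in kb on a log scale (left) and the GC content of the longest transcript in percent (right), colored by role. Cenpf, at 15433 bp, is the highest, at 2.97, and Gins2 the lowest, at -0.80.

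A smooth trend on length and GC content, fitted over all genes of each library, was subtracted as an alternative added after the data were seen. The median deviation of DMM replicate 4 was then 0.73 over the members and 0.08 over all genes, and 41 of 44 members were above 0. Mki67 was at 2.22, Kif4 at 1.997, Cenpf at 1.98, Bub1 at 1.86, Foxm1 at 1.77 and Ube2c at 1.75. Below 0 were Gins2, at -0.38, Cdk1, at -0.35, and Cenpa, at -0.22. By role, the median went from 1.70 to 1.38 for spindle and centromere genes and from 0.16 to 0.94 for kinase and checkpoint genes. It went from 0.17 to 0.44 for licensing genes and from 0.51 to 0.23 for clamp and nucleotide genes. Rrm1, the next longest member after Cenpf, at 11012 bp, went from 0.83 to 0.05. With a trend on length alone as an offset, the median log2 fold change of the members was -0.10 over 10 and -0.14 over 8 libraries, and that of cyclins and factors went from -0.27 to -0.05 over 10. With the trend on length and GC content as an offset, the median log2 fold change of the members was -0.17 over 10 libraries, with 0.06 over all genes. There edgeR called 0 members in either direction (0% of all genes), and 4 passed an unadjusted p under 0.05 as lower (6.23%) and 0 as higher (8.89%). Over the 8 libraries the median was -0.25, and edgeR called 0 members lower (3.98% of all genes) with 8 lower at an unadjusted p under 0.05 (10.5%) and 0 called higher (4.65%). Gins2 then had the lowest adjusted p, 0.0506 (edgeR). The cause of the trend was not tested.

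DMM replicate 5 had the lowest level of most members, and control replicate 4 the highest among controls. In DMM replicate 5 all 44 members were below the mean of the other 8 libraries, with DMM replicate 4 left out, and the median deviation was -0.74, against 0.00 over all genes. By role the medians were between -0.82 for Mki67 with Top2a and -0.71 for licensing genes. E2f8 was lowest, at -1.42, and Tyms highest, at -0.03. Control replicate 4 was highest for 19 members, most of them of the replication and kinase groups, and on the same scale all 44 were above 0 in it, with a median deviation of 0.59, and 0.01 over all genes. Cdc6 was at 1.02 and Cdk1 at 0.88 in that library, and Cenpf was lowest, at 0.21. Leaving out DMM replicate 5 moved the median fold change of the members from -0.20 to -0.14 over 10 libraries, and leaving out control replicate 4 moved it to -0.13.

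Markers of kidney and blood cells moved between the same libraries. Their part in the result was not tested. In each list named here no gene was at 0 in all libraries, and values are the mean log2 CPM of the list minus the control mean unless given as CPM. The 16 proximal tubule genes, led by Kap, were at 0.16, 0.15, 1.59, -1.56 and -0.34 in control replicates 1 to 5, and -0.42, 1.27, 1.31, 0.60 and 1.80 in DMM replicates 1 to 5. Their summed level was 4662, 4590, 12290, 1733 and 3507 CPM in control replicates 1 to 5, and 3469, 9689, 8094, 6716 and 11940 CPM in DMM replicates 1 to 5. Control replicate 4, the control with the highest level of the members, was the lowest for these genes, and DMM replicate 5, with the lowest level of the members, was the highest as mean log2 CPM. In summed level control replicate 3 was the highest and DMM replicate 5 came next. The 10 fibroblast and myofibroblast genes, led by Col3a1, summed to 8205, 11530, 6433, 16520 and 11010 CPM in control replicates 1 to 5, and 13370, 6560, 4415, 9271 and 5133 CPM in DMM replicates 1 to 5. Control replicate 4 was highest, and DMM replicates 3 and 5 were lowest.

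The 11 macrophage genes, led by Lyz2, summed to 2480, 2516, 1966, 2254 and 2680 CPM in control replicates 1 to 5, and 2332, 1685, 1340, 1164 and 1357 CPM in DMM replicates 1 to 5. DMM replicates 2 to 5 were below every control, and replicate 1 was inside the control range. The 10 T cell genes, led by Cd4, summed to 64.2, 67.4, 63.2, 54.2 and 94.3 CPM in control replicates 1 to 5, and 59.9, 50.04, 20.4, 25.4 and 27.1 CPM in DMM replicates 1 to 5. DMM replicates 2 to 5 were below every control. The 6 erythroid genes, led by Hbb-bs, summed to 136, 228, 230.4, 157 and 152 CPM in control replicates 1 to 5, and 288, 216, 593, 790.5 and 276 CPM in DMM replicates 1 to 5. The highest library was DMM replicate 4. The 7 neutrophil genes, led by Csf3r, summed to 25.3, 25.2, 21.9, 115 and 34.3 CPM in control replicates 1 to 5, and 32.1, 18.1, 28.5, 102 and 26.9 CPM in DMM replicates 1 to 5. Control replicate 4 and DMM replicate 4, the libraries that were highest for most members, were the 2 high ones.

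Over the 8 libraries edgeR called 5 of 16 proximal tubule genes and 5 of 10 genes of the loop, distal tubule and collecting duct (led by Umod) higher, with 2.73% of all genes. It called 2 of 11 macrophage, 2 of 10 T cell, 2 of 10 fibroblast and 1 of 9 B and plasma cell genes (led by Ighm) lower, with 3.56% of all genes. Of the 12 injured tubule genes (Spp1), 5 podocyte genes (Podxl), 8 endothelial genes (Plvap), 7 NK cell genes (Nkg7), 5 tested neutrophil genes and 5 tested erythroid genes it called 0. Of those, 5 erythroid genes were higher and 2 NK cell genes lower at an unadjusted p under 0.05 (10.8% of all genes in each direction). The 20 interferon response genes, led by Irf7, were all called lower there. They were at -2.66, -2.86, -3.25 and -3.18 in DMM replicates 2 to 5 and at -0.10 in DMM replicate 1, which the 8 libraries leave out, an order unlike that of the members. Over 10 libraries edgeR called 0 genes of any of these lists. There, 20 interferon, 7 T cell, 6 macrophage, 2 NK cell and 1 B and plasma cell genes passed an unadjusted p under 0.05 as lower, and 5 erythroid, 2 proximal tubule and 2 distal nephron genes as higher, with 6.49% and 4.4% of all genes. In the 7 libraries left of the 8 without DMM replicate 4, where 17 members were called lower, edgeR called 15 of 16 proximal tubule, 9 of 10 distal nephron and 5 of 5 erythroid genes higher (6.71% of all genes). Called lower there were 20 of 20 interferon, 7 of 11 macrophage, 5 of 10 fibroblast, 4 of 10 T cell, 2 of 9 B and plasma cell and 2 of 12 injured tubule genes (7.61%).

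Other genes of the cell cycle were taken from lists written beside that of the members. The 46 other replication genes, led by Dnmt1, had a median log2 fold change of -0.12 over 10 libraries, -0.28 without DMM replicate 4 and -0.18 over the 8 libraries. In edgeR's test 8, 19 and 9 of them passed an unadjusted p under 0.05 as lower (6.49%, 9.65% and 10.8% of all genes), and 0, 0 and 2 as higher (4.4%, 7.35% and 10.8%). Over the 8 libraries 2 were called lower (3.56% of all genes): Gins1, another GINS subunit, at -1.15 ± 0.26 (adjusted p = 0.0315), and Timeless, of the fork protection complex, at -0.86 ± 0.17 (adjusted p = 0.0198) (edgeR). Uhrf1, which brings DNA methylation to newly copied DNA, was at 41.3, 39.8, 40.1, 55.8 and 43.3 CPM in control replicates 1 to 5, and 34.4, 30.4, 28.6, 32.4 and 19.8 CPM in DMM replicates 1 to 5. All DMM libraries were below all controls, as for 1.16% of all genes. The log2 fold change of Uhrf1 was -0.60 ± 0.16 (adjusted p = 0.378) over 10 libraries (edgeR). Orc6, of the origin recognition complex, was at 12.1, 12.9, 12.3, 13.9 and 12.3 CPM in control replicates 1 to 5, and 9.81, 10.1, 8.104, 8.64 and 9.36 CPM in DMM replicates 1 to 5. It too was lower in every DMM library than in any control, at -0.47 ± 0.12 (adjusted p = 0.378) (edgeR). Uhrf1 and Orc6 were named for their small p in these same data, so that their separation adds no support. How many genes of the list were separated in this way was not counted.

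The 62 other mitosis genes, led by Smc4, had medians of -0.06 over 10 libraries, -0.34 without DMM replicate 4 and -0.06 over the 8 libraries. In edgeR's test 7, 21 and 6 of them passed an unadjusted p under 0.05 as lower (6.49%, 9.65% and 10.8% of all genes). As higher, 0 passed in each (4.4%, 7.35% and 10.8%). Over the 8 libraries edgeR called 2 of 62 lower (3.56% of all genes), Kifc1, a spindle motor, at -0.67 ± 0.17 (adjusted p = 0.044), and Ccnf, a cyclin of the SCF ubiquitin ligase, at -0.88 ± 0.20 (adjusted p = 0.0316). With the offset for length and GC content neither was called, at adjusted p values of 0.165 and 0.127 (edgeR). Of 23 tested genes of recombination and repair, led by Atm, the median was -0.07, and -0.46 without DMM replicate 4, with 0 called over 10 or 8 libraries and 2 lower and 0 higher at an unadjusted p under 0.05 in each (edgeR). Without DMM replicate 4, 11 of these were lower at that p (9.65% of all genes) and 0 higher (7.35%) in edgeR's test. Atr, the kinase of stalled forks, was at 129 CPM in DMM replicate 4, against 34.2 to 46.1 CPM in the other 9 libraries. The 19 G1 cyclins, kinases and inhibitors, led by Ccnd1, had a median of -0.18, and -0.15 without DMM replicate 4. Of these, 0 were called over 10 or 8 libraries, with 1 and 3 lower and 0 and 1 higher at an unadjusted p under 0.05 (edgeR). The CDK inhibitor Cdkn1a was at -0.57 ± 0.13 (adjusted p = 0.0315) over the 8 libraries (edgeR), a fold change just under 1.5. The 18 genes of the E2F, RB and DREAM list, led by Rbbp4, had a median of 0.01, and -0.08 without DMM replicate 4. The 22 p53 targets, led by Ccng1, had a median of -0.17, and -0.10 without DMM replicate 4. In these lists too edgeR called 0 over 10 or 8 libraries, with 0 and 1 of the E2F list and 1 and 5 of the p53 targets lower at an unadjusted p under 0.05, and 0 and 1 of each higher. Over 10 and 8 libraries, 6.49% and 10.8% of all genes were lower at that p, and 4.4% and 10.8% higher. The same shares stand beside the repair and G1 counts. Without DMM replicate 4, the 7 libraries left of the 8 gave 10 of 46 replication, 12 of 62 mitosis, 7 of 23 repair, 1 of 19 G1, 2 of 18 E2F list and 2 of 22 p53 target genes called lower (7.61% of all genes), and 1 p53 target higher (6.71%) in edgeR's test.

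Promoter sequences were read for the members because replication and mitosis genes are known to be under different factors. Windows of 250 bases before to 50 after the start came from RefSeq on GRCm38.p6. Of 44 members, 36 had a window, and Mcm7 and Prc1 had 2, which gave 38 windows. Aurkb, Ccna2, Ccne2, Foxm1, Gins2, Kif20a, Mcm4 and Tpx2 had none. The words searched, on both strands, were TTTGAA or TTCGAA for the cell cycle homology region (CHR) that MuvB complexes bind, CCAAT for NF-Y, and TTTCCCGC, TTTCGCGC, TTTGCCGC or TTTGGCGC for E2F. TTCGAA is its own reverse complement. E2F words may overlap each other, as they do in Mcm5 and Mcm6. A CHR word was in 21 of 38 member windows (55.3%) and in 19.2% of all 32851 windows. CCAAT was in 30 (78.9%) and in 37.4% of all windows, and an E2F word was in 7 (18.4%) and in 2.26% of all. A CHR word together with CCAAT was in 21 (55.3%), and in 7.52% of all windows.

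The words were divided by role. E2F words were in 6 of 8 windows of licensing genes (75%) and in 1 of 30 windows of the other roles (3.33%), that of Cdk1. CHR words were in 2 of 8 windows of licensing genes (25%) and in 19 of 30 of the others (63.3%). These were 7 of 8 for kinase and checkpoint genes (87.5%), 7 of 9 for spindle and centromere genes (77.8%), 3 of 6 for cyclins and factors, 2 of 2 for Mki67 and Top2a, and 0 of 5 for clamp and nucleotide genes. Of members highest in DMM replicate 4, 17 of 23 had windows, 18 in all. Those without were Ccna2, Ccne2, Foxm1, Kif20a, Mcm4 and Tpx2. Of these 18 windows, 12 held a CHR word (66.7%) and 1 held an E2F word (5.56%). Of members highest in control replicate 4, 18 of 19 had windows, 19 in all. Of these 19 windows, 9 held a CHR word (47.4%) and 5 an E2F word (26.3%). A match is a description of the letters, not a site.

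A stretch of 110 bases is shown for 6 genes, to set the replication genes Mcm5 and Mcm6 beside Cdk1, which holds all 3 kinds of word, and Kif11, Mki67 and Top2a, mitotic genes picked from those raised in DMM replicate 4. Each reads 5' to 3' on the strand of the gene, and capitals mark the words for CHR, CCAAT and E2F or their reverse complements. The regions are chr8:75109356-75109465 (plus strand), chr1:128359706-128359815 (minus), chr10:69352939-69353048 (minus), chr19:37376272-37376381 (plus), chr7:135716458-135716567 (minus) and chr11:99024259-99024368 (minus).
Mcm5: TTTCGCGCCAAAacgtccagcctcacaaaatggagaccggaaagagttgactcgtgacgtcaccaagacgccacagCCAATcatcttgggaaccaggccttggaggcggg
Mcm6: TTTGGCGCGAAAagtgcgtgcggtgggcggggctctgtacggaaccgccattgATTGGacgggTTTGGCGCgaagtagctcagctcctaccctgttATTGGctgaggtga
Cdk1: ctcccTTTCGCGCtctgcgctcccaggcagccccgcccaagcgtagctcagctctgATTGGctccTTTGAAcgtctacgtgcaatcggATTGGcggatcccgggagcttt
Kif11: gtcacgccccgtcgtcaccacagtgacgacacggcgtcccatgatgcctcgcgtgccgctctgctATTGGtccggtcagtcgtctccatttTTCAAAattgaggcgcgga
Mki67: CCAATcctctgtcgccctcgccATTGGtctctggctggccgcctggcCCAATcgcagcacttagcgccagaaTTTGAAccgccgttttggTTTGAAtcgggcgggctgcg
Top2a: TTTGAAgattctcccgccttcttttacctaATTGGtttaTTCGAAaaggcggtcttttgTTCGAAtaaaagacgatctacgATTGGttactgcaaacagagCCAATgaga

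In the stretches of Mcm5 and Mcm6 there were E2F words and CCAAT but no CHR word, and in those of Kif11, Mki67 and Top2a CHR words and CCAAT but no E2F word. Top2a held 3 CHR words and 3 CCAAT, and Mki67 held 2 and 3. Mcm5 was at 48.0 CPM in DMM replicate 4, inside the control range of 36.9 to 58.4 CPM, and Mcm6 was at 119 CPM, with 69.9 to 110.1 CPM in controls. Cdk1 was at 11.5 CPM, just under its lowest control. Kif11, at 51.7 CPM, Mki67, at 513 CPM, and Top2a, at 230.5 CPM, were all above their highest controls, of 23.0, 95.8 and 81.3 CPM. Other mitotic genes with a CHR word and CCAAT in their windows were not raised so in CPM: the deviation of that library was -0.42 for Plk1, -0.10 for Cenpa, 0.13 for Cdca8 and 0.16 for Cdc20. With the trend on length and GC content subtracted, these were 0.52, -0.22, 0.03 and 1.15. Kif11 was then at 1.25, Mki67 at 2.22 and Top2a at 1.42. Kif11, Mki67 and Top2a also had a low GC content, of 42.2%, 46.6% and 43.4%, and the part of length, GC content and promoter words in these levels was not tested.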

How the data were processed

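Bulk mRNA libraries of 10 obstructed kidneys were sequenced on a NovaSeq X Plus, and the authors aligned the reads to mm10, with HISAT2 2.0.5 per the submitters' processing notes. The authors deposited counts for each gene and library, which were used for every test. The FPKM values that the authors deposited, scaled by gene length and library size, were used for no test. The deposited signal of each group is a mean of counts divided by size factors, and served to find which libraries had entered it. The deposited gene length, another column of the table, is in bp. Deposited columns of the authors' comparison hold a log2 fold change, p and adjusted p from DESeq2, and were not used. Apart from the FPKM values, per-sample columns not used number 0. Annotation release and strand setting were not given in the sources used here.

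Genes were kept by filterByExpr, scaled by TMM and tested by the quasi-likelihood F test of edgeR 4.0.16 in R 4.3.3, with Benjamini-Hochberg adjustment over all tested genes. A gene was called with an adjusted p under 0.05 when its fold change was also above 1.5. Each fold change and its F value gave the standard error. List levels average log2 CPM, computed with prior count 2. Role groups and other lists are described by counts and medians, with no test of the list: they cover other replication and mitosis genes, G1 cyclins and inhibitors, the E2F, RB and DREAM genes, p53 targets, recombination and repair, and markers of proximal tubule, injured tubule, loop to collecting duct, podocyte, endothelial, fibroblast, macrophage, T, NK, B and plasma cells, neutrophils and erythroid cells, with interferon response genes. The result of 1 gene of the other replication list is not reported here.

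Genes given in full were Mki67, Top2a, Cdk1, Ccnb1, Pcna, Mcm2, Ccne1 and E2f1, and in each of 6 role groups the member of highest level per length and of smallest p over 10 and over 8 libraries, which made 16. Of each other cell cycle list, genes were named from the 3 of smallest p in each fit. The members, lists and rules were chosen with earlier results of these data known. GC content was that of the longest transcript in GENCODE vM21, and promoter windows were those of RefSeq.

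Alternatives were the 8 libraries, each library left out in turn, the replicate number as a block, RLE factors or library size alone, DESeq2 1.42.0, other filters and thresholds, and an offset for gene length. An offset for length and GC content by loess (span 0.3) was added after the data were seen. The steps were tested on simulated data. Total counts were 15722527 to 19475833 per library. Reads carried no molecular identifiers as far as the sources say, so that they are not independent molecules, and precision was taken from the spread between mice.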

Additional observations from a re-analysis of the deposited data

Results flagged for a closer look

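Within each group of 5 libraries, the gap between an extreme library and its nearest neighbour was divided by the range of the group. Genes were taken in CPM and means in log2 CPM, and values above 0.71 are given here. Chance gives about 1 in 20 groups of normally distributed values, which CPM need not be. Of 102 groups tested, over 44 genes, 6 role means and the list mean, 19 were above it, and 17 of these had DMM replicate 4 as the highest of the DMM libraries.

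Among spindle and centromere genes, the value for DMM replicate 4 was 0.94 for Cenpf, 0.903 for Nusap1, 0.895 for Kif4, 0.891 for Cenpe, 0.855 for Kif23, 0.822 for Prc1, 0.804 for Kif11 and 0.753 for Kif20a. It was 0.925 for Mki67, 0.842 for Top2a and 0.753 for the mean log2 CPM of both. For cyclins and factors it was 0.877 for Foxm1, 0.874 for Ccne2, 0.778 for Ccna2 and 0.716 for Ccnb1. It was 0.911 for Bub1 and 0.809 for Tyms. Control replicate 4 was the highest control by this measure for Cenpa, at 0.76, and for Bub1, at 0.748. The genes share their libraries, so that these values are not independent of each other, and the cause was not tested.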

How the results depend on the processing

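Of the summary values under all alternatives, 381 stayed within the spread or within 1.5 times the value over 10 libraries and 58 moved. The 381 include values within the spread that changed sign, such as the spindle and centromere median, at 0.22 and, without DMM replicate 4, at -0.37. Of the values of the 16 genes given in full, 503 kept direction and side of the threshold, 12 passed it newly and 13 reversed. The cause was not tested.

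Genes called higher and lower, 0 and 0 over 10 libraries, were 452 and 590 over the 8 libraries, 463 and 573 there with RLE factors, 276 and 700 with library size alone, 749 and 910 with DESeq2, 706 and 618 with a length offset, 769 and 658 with a length and GC offset, and 0 and 0 with the replicate block. DESeq2 over 10 libraries gave 12 and 33. Members called lower, 0 over 10 libraries, were 1 over the 8 libraries, 1 there with RLE factors, 2 with library size alone, 3 with DESeq2, and 0 with the replicate block, the length offset or the length and GC offset. Members lower at an unadjusted p under 0.05, 6 over 10 libraries (6.49% of all genes), were 16 with library size alone (8.05%), 10 with no filter (4.75%), 12 over the 8 libraries (10.8%), and there 12 with RLE factors (10.5%), 21 with library size alone (14.4%) and 14 with DESeq2 (6.91%). With the replicate block, over the 8 libraries, they were 14 (6.74%). In that fit only replicate numbers 2, 4 and 5 held both groups, so that its 0 calls, of genes and of members, decide little. Replicate numbers come from the sample titles, which name no pairing. Correlations over all tested genes between control and DMM libraries of the same number, as deviations from group means, ran from -0.223 to 0.341. In 0 cases was the own number the best on both sides, and so few values do not settle whether a pairing exists. Top2a reversed to -0.04 with the replicate block and -0.12 with it over the 8 libraries. With the block over 10 libraries, the spindle and centromere median went from 0.22 to -0.02. That of Mki67 with Top2a went from 0.65 to 0.08, and Mki67 alone from 0.92 to 0.2. Cdc20 reversed to 0.09 with the length and GC offset and 0.13 with it over the 8 libraries.

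Over 18 fits that each left out 1 library, from the 10 or the 8, genes called higher ranged from 0 to 1129. Genes called lower ranged from 0 to 1281. Members called lower ranged from 0 to 17, with 7.61% of all genes called lower in the fit with 17. Members lower at an unadjusted p under 0.05 in edgeR's test ranged from 2 to 37. Of all genes, 4.84% and 4.53% were lower in the fits with 2, and 19.9% in that with 37. The median log2 fold change ranged from -0.60 to -0.13 over all members, -0.65 to -0.33 for licensing, -0.55 to -0.14 for clamp and nucleotide, -0.66 to -0.15 for cyclin and factor, -0.63 to -0.19 for kinase and checkpoint, -0.50 to 0.54 for spindle and centromere genes, and -0.52 to 1.05 for Mki67 with Top2a. Mki67 ranged from -0.37 to 1.4, Top2a from -0.68 to 0.70, Ccnb1 from -0.78 to 0.02 and Tpx2 from -0.75 to 0.06.

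Over 10 libraries, differences of several standard errors were not called, and the reason was not tested. The calls over 7 libraries rest on 3 DMM kidneys. Whether whole tissue levels follow the number of cycling cells was not measured.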
